A study of Tetranychus urticae with 4 samples.

Results

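The 6 genes described here are grouped as cell cycle and DNA synthesis genes, a name that the study did not give them as a set. They are among the genes that the study looked up when it set diapause in the spider mite Tetranychus urticae beside dormancy in other species. They were found on the array by their gene identifiers and make up 6 of 18217 genes with a probe. Together they stand for 4 kinds of protein: proliferating cell nuclear antigen (PCNA, tetur20g01760), the small subunit of ribonucleoside diphosphate reductase (tetur12g00060 and tetur27g02500), a histone H2A variant (tetur11g02430) and a ubiquitin C-terminal hydrolase (tetur05g03970 and tetur189g00020). They are homologs of marker genes that came from earlier array work on dormant flies and nematodes. Of those markers they are the ones that the study gave as lower in every species it compared. Its calls for the mite came from these same arrays, so the set is not independent of them.

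RNA of diapausing adult females was hybridized against RNA of non-diapausing adult females in 4 replicates, on 4 dual-color arrays of 1 slide. Both groups were females of the LS-VL strain that had been reared as larvae and kept until adulthood at 17 °C, 80% relative humidity and 8 h of light against 16 h of darkness. Under these conditions some females entered diapause and others did not, so the groups shared their rearing. Each sample was RNA of whole females that had been pooled, with more females in a diapausing pool than in a non-diapausing pool. Diapausing RNA was always labelled with Cy5 and non-diapausing RNA with Cy3, and without a dye swap the effect of the dye and the effect of diapause cannot be told apart. The labels call the arrays replicates without saying whether the pools came from separate cultures, and the p-values cover the spread between these 4 pairs of pools only. In the limma tests the spread of each gene was also drawn toward that of all genes tested.

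PCNA is the ring that slides along DNA and holds the replicating polymerase on its template. Ribonucleoside diphosphate reductase makes the deoxyribonucleotides from which DNA is built, and its small subunit carries the radical that the reaction needs. Histone H2A variants replace the standard H2A in part of the nucleosomes, and the Drosophila variant H2Av has roles in chromatin structure and in marking DNA breaks. Ubiquitin C-terminal hydrolases cut ubiquitin from proteins, and the Drosophila enzyme of this kind that the study compared works at the proteasome. Whether the mite hydrolase has a part in the cell cycle was not tested. In adult arthropods the ovary is a main site of cell division, and adult females of T. urticae stop reproducing while in diapause.

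The values are log2 ratios of diapausing over non-diapausing signal, averaged over the probes of a gene. A gene was called changed when its adjusted p (limma, Benjamini-Hochberg over 14986 genes with a detected probe) was below 0.05, and a second, stricter rule also asked for a change of at least 2-fold. All 6 genes were detected and tested. Under the first rule 5 of the 6 were lower and 0 were higher in diapausing females, where 27.0% of all genes tested were lower and 37.7% were higher, or 64.8% in either direction. The gene on the other side of the threshold was PCNA. The same 5 genes had a ratio below 0 on 4 of 4 arrays, as did 30.8% of all genes. The study had given all 6 genes as lower from these arrays, so these counts are no independent support for a decrease. Under the 2-fold rule 0 of the 6 were called, against 9.10% of all genes lower and 9.04% higher (18.1% in either direction). The median log2 fold change was -0.41 over the 6 genes, against 0.10 over all genes tested. The 6 genes are not 6 separate measurements, since the hydrolase genes share all of their probes and the reductase genes share most of theirs. RNA of whole females does not tell fewer dividing cells from less of a transcript in each cell.

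**Figure D1:**
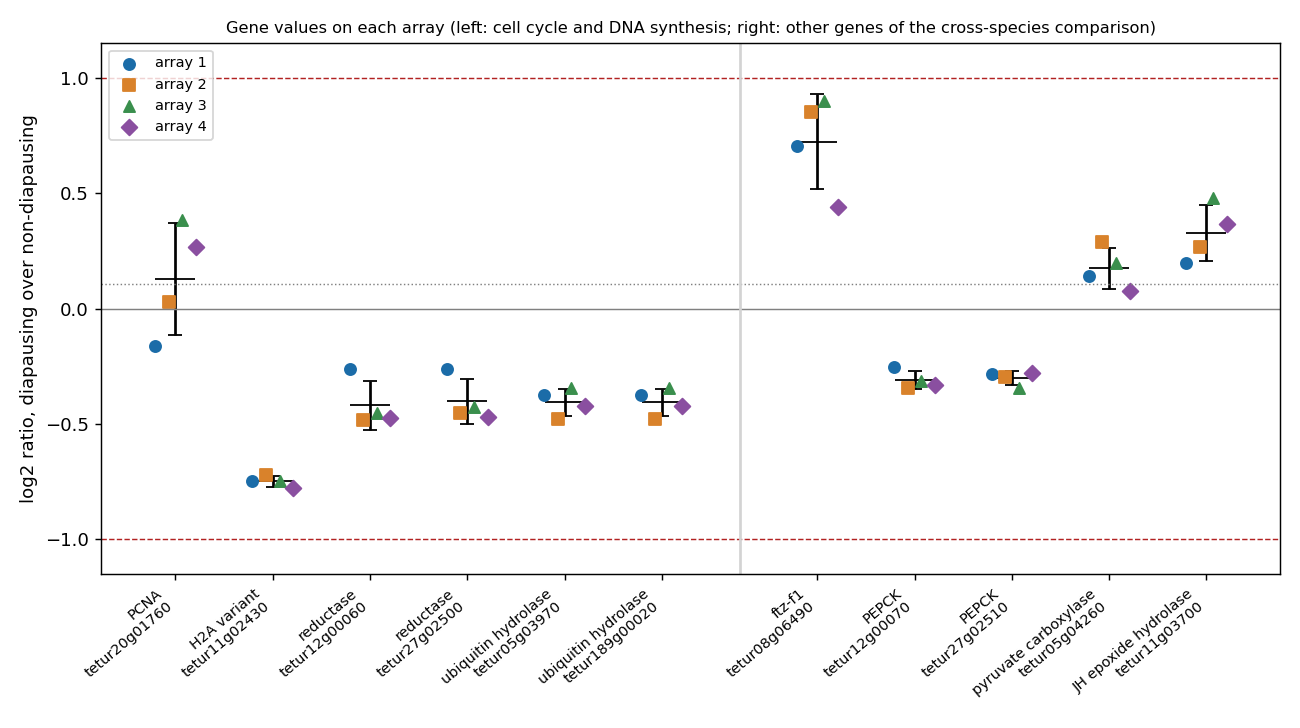
Log2 ratio of diapausing over non-diapausing signal on each of the 4 arrays for the 6 genes (left of the vertical line) and for 5 other genes of the study's comparison across species (right). Points are arrays, black bars are the mean ± SD, the dotted line is the median of all genes (0.10), and the dashed lines mark a 2-fold change. The H2A variant lies at -0.78 to -0.72 on the 4 arrays, the reductase and hydrolase genes lie between -0.48 and -0.26, and PCNA lies on both sides of 0.

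The 6 vitellogenin genes, which encode the yolk precursors of reproducing females, were used to check the labels, and their log2 fold changes ran from -9.22 to -7.74 in diapausing females. All of them were least reduced on the array of replicate 4. Their log2 ratios there were -6.28 to -5.27, against -11.51 to -7.60 on the other arrays, and the cause was not tested. The part of the vitellogenin genes in the values of the 6 genes described here was not tested. The 4 arrays resembled each other, with correlations of the log2 ratios between arrays of 0.88 to 0.91, and 69.2 to 72.1% of gene spots were well above background in the diapausing channel against 67.2 to 69.5% in the non-diapausing channel. No spot was saturated. The RNA added to each sample as a spike-in control gave log2 offsets of -0.03 and 0.13 on the arrays of replicates 1 and 3, which lie in the first column of the slide, and of -0.74 and -0.81 on those of replicates 2 and 4, which lie in the second. The ratios used here are those after the software's dye normalization, and a gene is also given on the spike-in scale where that scale changed its call. The study took 3 genes as references for quantitative PCR. Actin had a log2 fold change of -0.31 (limma, adjusted p = 0.0105), ubiquitin C 0.40 (adjusted p = 0.00302) and RP49 0.04 (adjusted p = 0.626). The actin and ubiquitin C changes were similar in size to those of the reductase and hydrolase genes below.

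The histone H2A variant had the strongest decrease of the set when all probes of a gene were averaged. Its mean log2 signal was 14.43, 14.48, 14.44 and 14.41 in diapausing females of replicates 1 to 4, against 15.18, 15.20, 15.18 and 15.19 in non-diapausing females. The groups did not overlap, as was the case for 24.7% of all genes in this direction, and within each group the 4 values lay close together. The log2 ratio was -0.75, -0.72, -0.75 and -0.78, with a mean of -0.75 ± 0.02 (SD, n = 4, adjusted p = 0.000391). Signal in diapausing females was 59.5% of that in non-diapausing females. This change was lower than that of all but 12.7% of the genes tested, and it fell short of the 2-fold rule on each of the 4 arrays. The 3 probes of the gene, none of which lists another gene, gave log2 fold changes of -0.74, -0.83 and -0.68. All 3 were lower on 4 of 4 arrays. On the spike-in scale the ratio was -0.72 and -0.88 on the arrays of replicates 1 and 3, and 0.02 and 0.03 on those of replicates 2 and 4, with a mean of -0.39 (adjusted p = 0.292).

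Both genes for the small subunit of ribonucleoside diphosphate reductase fell by a smaller amount. For tetur12g00060 the mean log2 signal was 13.46, 13.26, 13.33 and 13.32 in diapausing females, against 13.72, 13.74, 13.78 and 13.79 in non-diapausing females. For tetur27g02500 it was 13.53, 13.36, 13.44 and 13.38 in diapausing females, against 13.79, 13.81, 13.87 and 13.85 in non-diapausing females. In both genes every diapausing value lay below every non-diapausing value, and the diapausing pool of replicate 1 was the highest of its group. On the log2 scale tetur12g00060 changed by -0.42 ± 0.11 (SD, n = 4, adjusted p = 0.00427) and tetur27g02500 by -0.40 ± 0.10 (adjusted p = 0.00443). The ratio of replicate 1 was -0.26 in both genes, while the other arrays gave -0.48 to -0.45 for tetur12g00060 and -0.47 to -0.43 for tetur27g02500. Diapausing signal was 74.8% and 75.7% of non-diapausing signal. On the spike-in scale tetur12g00060 was at -0.23 and -0.59 on the arrays of replicates 1 and 3 and at 0.25 and 0.34 on those of replicates 2 and 4, and neither gene passed the test (adjusted p = 0.891 for tetur12g00060 and 0.924 for tetur27g02500).

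**Figure D2:**
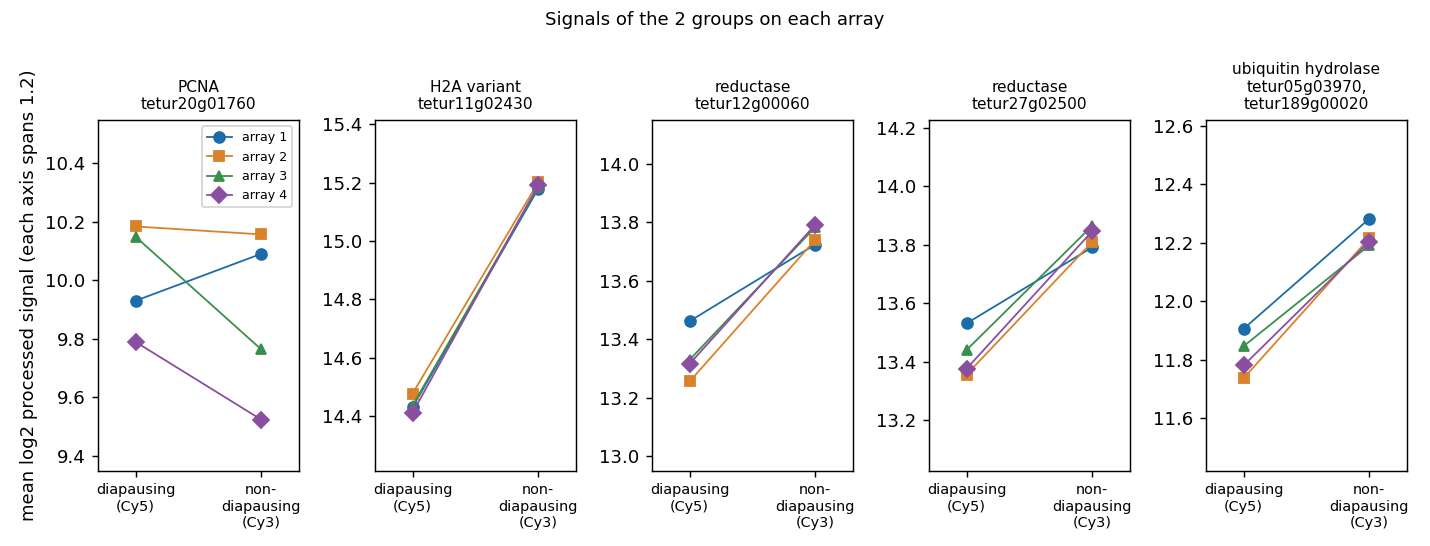
Mean log2 processed signal of each gene in diapausing females (Cy5, left in each panel) and non-diapausing females (Cy3, right), with a line for each of the 4 arrays. Each vertical axis spans the same range but starts at another level, since levels of different genes cannot be compared on an array. In the panels other than PCNA all 4 lines run to a higher non-diapausing value, and for PCNA 3 of 4 run to a lower one.

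The nearly equal values of the reductase genes come from shared probes. Of the 5 probes each gene has on the array, 4 list both genes and 1 lists that gene alone. The shared probes gave log2 ratios of -0.14, -0.38, -0.36 and -0.38 on the arrays of replicates 1 to 4, a mean of -0.31 ± 0.12 (SD over arrays, n = 4). The probe of tetur12g00060 alone gave -0.74, -0.91, -0.82 and -0.87, a mean of -0.84 ± 0.07 (adjusted p = 0.000456 over all probes). The probe of tetur27g02500 alone gave -0.73, -0.76, -0.68 and -0.84, a mean of -0.75 ± 0.07 (adjusted p = 0.000587). These are probes that target either gene alone, and both showed a steeper decrease than any probe that targets both. The shared mean thus did not lie between the own values, and the cause was not tested. Own probes were also dimmer, with mean processed signals of 2333 to 5284 over both groups, against 9381 to 30010 for shared probes. The mean of the own probes was below that of the shared probes on 4 of 4 arrays, by -0.48 ± 0.09 on the log2 scale (two-sided exact sign-flip permutation test, p = 0.125, the smallest that 4 arrays allow). With probes of 1 gene only, the fold changes of -0.84 and -0.75 would place both genes at the level of the H2A variant, yet each then rests on a single spot per array. The weaker decrease on the array of replicate 1 was clearest in the shared probes. The own probe of tetur12g00060 was weakest there too (-0.74), while that of tetur27g02500 was weakest on the array of replicate 3 (-0.68).

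The ubiquitin C-terminal hydrolase genes tetur05g03970 and tetur189g00020 share all 6 of their probes, so the array gives 1 measurement for the pair. Mean log2 signal was 11.91, 11.74, 11.85 and 11.78 in diapausing females, against 12.28, 12.22, 12.19 and 12.20 in non-diapausing females. The groups did not overlap. The log2 ratio was -0.38, -0.48, -0.35 and -0.42, with a mean of -0.41 ± 0.06 (SD, n = 4, adjusted p = 0.00291), so that diapausing females had 75.5% of the signal of non-diapausing females. Single probes ranged from -0.49 to -0.28 and all 6 were lower on 4 of 4 arrays. Whether 1 or both genes changed cannot be read from these probes. On the spike-in scale the mean was -0.044 (adjusted p = 0.917), with -0.35 and -0.48 in the first column of the slide and 0.26 and 0.39 in the second.

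PCNA did not pass the test, and its probes differed in sign. The study gave this gene as lower in diapausing females. The mean over all of its probes did not show that direction here. Mean log2 signal was 9.93, 10.18, 10.15 and 9.79 in diapausing females, against 10.09, 10.16, 9.76 and 9.52 in non-diapausing females. The groups overlapped, with replicate 1 lower and replicates 2, 3 and 4 higher in diapausing females. The log2 ratio was -0.16, 0.03, 0.39 and 0.27, with a mean of 0.13 ± 0.24 (SD, n = 4, adjusted p = 0.334). The first probe of the gene had processed signals of 2910, 2658, 2275 and 2413 in diapausing females, against 3306, 3267, 2691 and 3266 in non-diapausing females, and its log2 fold change was -0.29 ± 0.11 (adjusted p = 0.0172). The second had 10240, 10450, 10340 and 9758 in diapausing females, against 10530, 10840, 11980 and 10750 in non-diapausing females, with a log2 fold change of -0.11 ± 0.08 (adjusted p = 0.185). Both were lower on 4 of 4 arrays.

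The third PCNA probe had processed signals of 31.1, 56.6, 62.2 and 29.4 in diapausing females, against 37.2, 42.0, 20.4 and 11.4 in non-diapausing females. It was well above background on 3 of the 4 arrays in the diapausing channel and on 2 of 4 in the non-diapausing channel, and its log2 ratio was -0.26, 0.43, 1.61 and 1.37. The mean over the other 2 probes was -0.11, -0.18, -0.23 and -0.29 on the 4 arrays, or -0.20 ± 0.07 (SD, n = 4). PCNA had a log2 fold change of -0.20 with an adjusted p of 0.0298 when probes had to be detected in both channels, and with an adjusted p of 0.0220 when their mean processed signal had to reach 100 in both channels, a limit chosen after the data were seen. The direction given for PCNA therefore depends on whether this probe is counted. It also depends on background correction and normalization. With all 3 probes averaged, normexp background and loess gave -0.11 (limma, adjusted p = 0.0888).

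**Figure D3:**
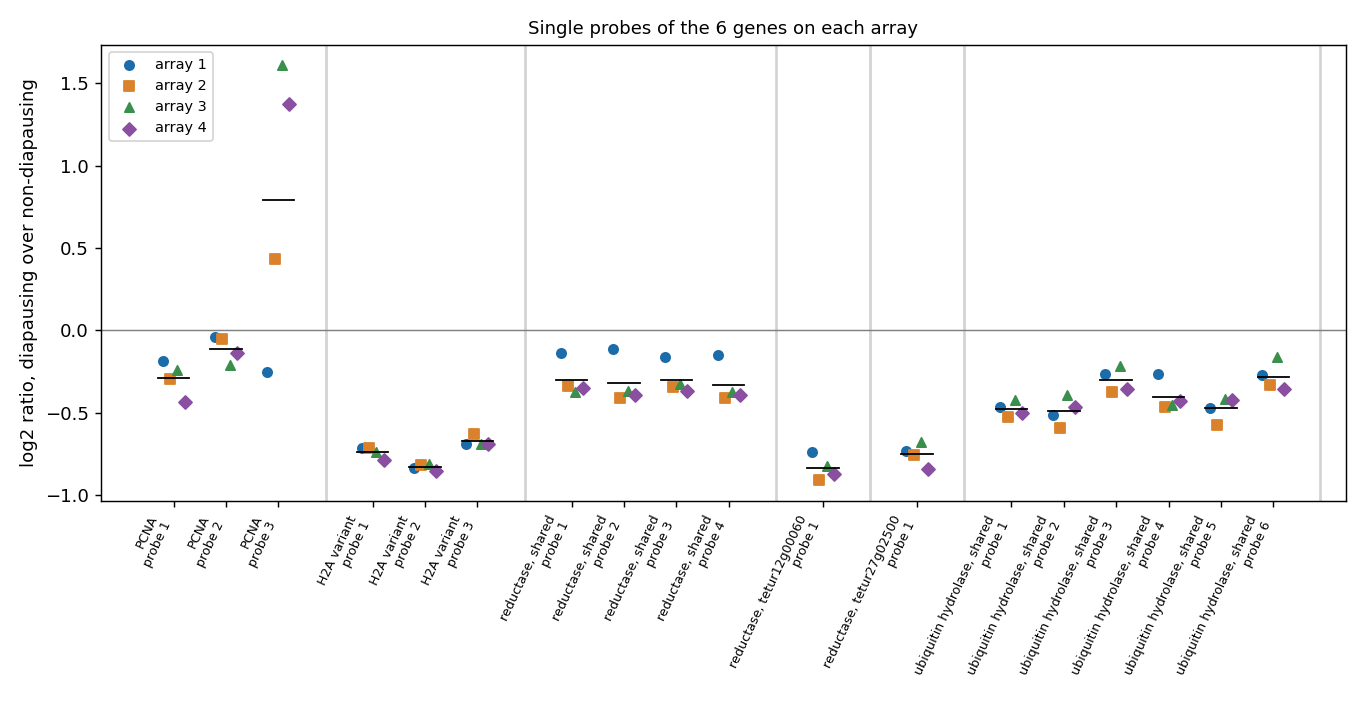
Log2 ratio of diapausing over non-diapausing signal for each of the 18 probes of the 6 genes on each array, with a black line at each probe's mean. The third PCNA probe spreads from -0.26 to 1.61, while the other 17 probes lie below 0 on 4 of 4 arrays, the own probes of both reductase genes below the shared ones. Of all genes tested 30.8% lay below 0 on 4 of 4 arrays, and the share of all probes is not given here.

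Over the 18 probes, 16 were lower at an adjusted p below 0.05 and 0 were higher, beside 27.0% of all 40349 probes kept that were lower. Of the 18 probes 10 list both members of a gene pair, and probes of a gene are not independent samples. The exceptions were the second and the third probe of PCNA. With 3 arrays the number of probes called lower was 16 without replicate 1, 9 without replicate 2, 12 without replicate 3 and 11 without replicate 4. The number of all genes called lower was 4053 with 4 arrays, and 3777, 3378, 3429 and 3493 in the same order. A share over all probes is not given here for the fits with 3 arrays. The 3 probes of the H2A variant and the own probe of each reductase gene passed in each fit with 3 arrays. The shared reductase probes, the first PCNA probe and some hydrolase probes did not in at least 1 of them. Without replicate 1 the third PCNA probe was called higher in diapausing females, by 1.14 on the log2 scale (adjusted p = 0.0270).

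The genes were compared with each other array by array, over 11 differences in all. The H2A variant was below tetur12g00060 by -0.33 ± 0.11 on the log2 scale, below tetur27g02500 by -0.35 ± 0.10 and below the hydrolase pair by -0.34 ± 0.07, on 4 of 4 arrays each time (SD, n = 4). PCNA was above the H2A variant by 0.88 ± 0.25 and above the reductase and hydrolase genes by 0.53 to 0.55, also on 4 of 4 arrays. Each of these differences had an exact sign-flip permutation p of 0.125 (0.153 after adjustment over the 11), the smallest that 4 arrays can give, so the design cannot place them past 0.05. The reductase genes and the hydrolase pair had neighboring values, with differences of -0.01 ± 0.09 for tetur12g00060 (exact p = 0.75) and 0.00 ± 0.09 for tetur27g02500 (exact p = 1), smaller than their spread between arrays. With all probes averaged, the H2A variant thus had the lowest log2 fold change, reductase and hydrolase could not be separated, and PCNA stood above them. This order depends on the probes counted, since with probes of 1 gene only tetur12g00060 (-0.84) and tetur27g02500 (-0.75) were at or below the H2A variant (-0.75), and PCNA rested on the probe near background.

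**Figure D4:**
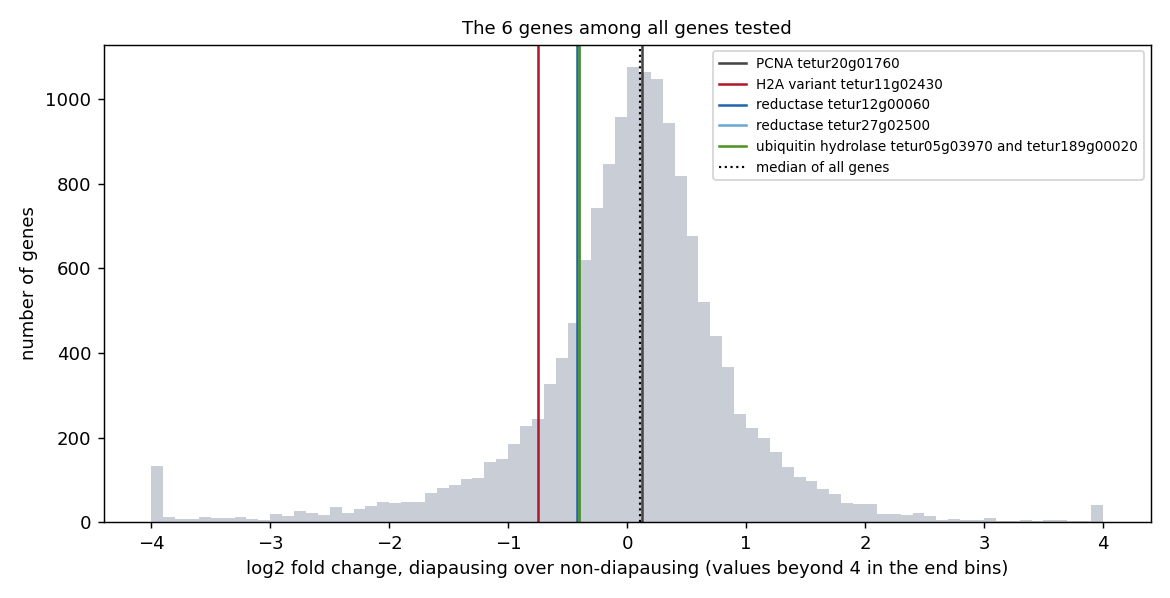
Number of genes at each log2 fold change of diapausing over non-diapausing females for all 14986 genes tested, with vertical lines at the 6 genes and a dotted line at the median of all genes. The H2A variant (-0.75), both reductase genes (-0.42 and -0.40) and the hydrolase pair (-0.41) lie left of the median of 0.10, and PCNA (0.13) lies beside it.

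The same comparison across species held 5 other genes, with other roles. The transcription factor gene ftz-f1 (tetur08g06490), a nuclear receptor that acts in molting and reproduction in Drosophila, was higher in diapausing females on 4 of 4 arrays, by 0.72 ± 0.21 on the log2 scale (SD, n = 4, adjusted p = 0.00224). Juvenile hormone epoxide hydrolase (tetur11g03700), which breaks down juvenile hormone in insects, was higher by 0.33 ± 0.12 (adjusted p = 0.0119), and on the spike-in scale it was at 0.69 and missed the threshold (adjusted p = 0.0509). Pyruvate carboxylase (tetur05g04260) had 0.18 ± 0.09 (adjusted p = 0.0587), and it was called higher in 5 of 22 other ways of processing, such as normexp with median centring (0.40, adjusted p = 0.00143). Phosphoenolpyruvate carboxykinase, an entry enzyme of gluconeogenesis, was lower, with -0.31 ± 0.04 for tetur12g00070 (adjusted p = 0.00635) and -0.30 ± 0.03 for tetur27g02510 (adjusted p = 0.00657). The value of tetur12g00070 rests on 1 probe that it shares with tetur27g02510. On the spike-in scale tetur12g00070 was at 0.053 (limma, adjusted p = 0.900) and tetur27g02510 at 0.061 (adjusted p = 0.882), so both lost their calls. Of these 5 genes none had a 2-fold change as reported, but ftz-f1 was over 2-fold higher on the spike-in scale (1.09, adjusted p = 0.00145) and with the brightest probe of each gene (adjusted p = 0.000936).

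The pattern of PCNA over its 8 log2 signals, from 4 arrays and 2 groups, was most like those of tetur01g01560 (Pearson's r = 0.974), tetur01g00410 (r = 0.948) and tetur12g02440 (r = 0.943), among 14337 genes with a probe of their own. The points share 4 arrays, and the array files give these genes no description. Their log2 fold changes were 0.15 ± 0.18, 0.13 ± 0.29 and 0.18 ± 0.25 (SD, n = 4), and none passed the test. The likeness is to the mean over 3 PCNA probes, the third of which had an SD of 0.86 between arrays. All 3 matched genes were dim. Their mean log2 signals were 5.89, 6.23 and 5.04 in diapausing and 5.74, 6.10 and 4.86 in non-diapausing females, against 10.01 and 9.88 for PCNA.

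Across 22 other ways of processing the data, the H2A variant and both reductase genes kept their direction in all 22 and their call in 20. The hydrolase pair could be measured in 21 and kept its call in 19. The calls were lost when the test asked for a change beyond 2-fold and under spike-in scaling. That scaling also moved the background, with 1287 genes lower and 5107 higher against 4053 lower and 5655 higher as reported, and it moved the median log2 fold change of all genes to 0.47, against 0.10. Differences between genes of an array do not change with this scaling, and relative to the median of all genes the H2A variant was at -0.85, tetur12g00060 at -0.52, and tetur27g02500 and the hydrolase pair at -0.51.

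**Figure D5:**
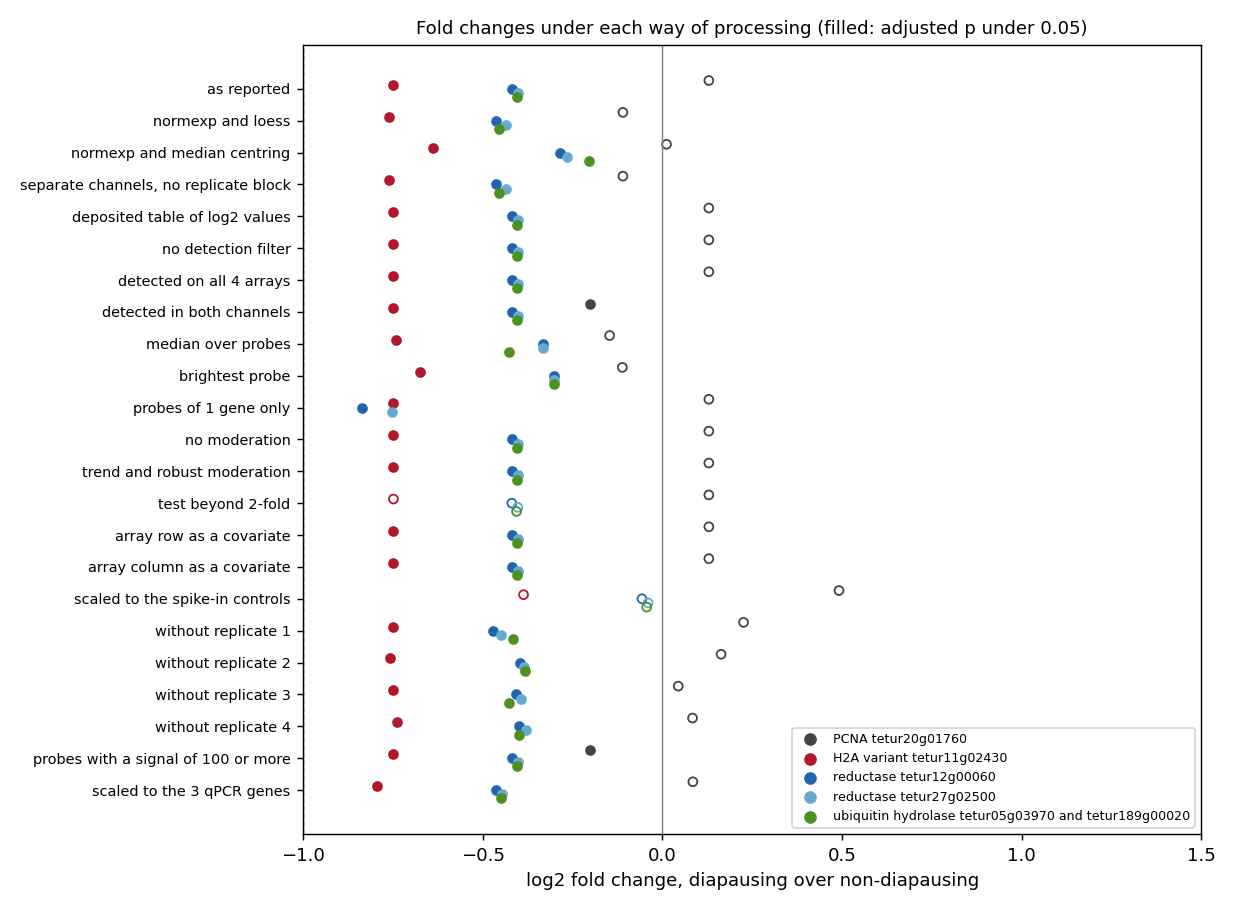
Log2 fold change of diapausing over non-diapausing females for the 6 genes as reported and under each of 22 other ways of processing, with filled points for an adjusted p below 0.05. The H2A variant, reductase and hydrolase points lie left of 0 in every row, closest to 0 under scaling to the spike-in controls, and PCNA lies between -0.20 and 0.49.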

How the data were processed

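The authors made labelled cRNA from 100 ng of total RNA per sample, hybridized it on custom arrays and quantified these with Agilent Feature Extraction (version 10.7.1.1 per the file headers). As deposited, intensity values are median spot and background signals and the processed signals, which the authors' software had background-subtracted and dye-normalized within each array. The deposited log10 ratios of processed Cy5 (diapausing) over Cy3 (non-diapausing) signal were converted to log2. A further table of log2 values, deposited by the authors, equals the log2 ratio of the processed signals and was used as an alternative. Control spots and spots marked non-uniform or population outlier (49 to 114 gene spots per array) were left out. Probes had to be well above background in either channel on 2 or more of the 4 arrays, which left 40349 of 56184 probes. Probes were averaged per gene, and a probe that lists several genes counted for each. The log2 ratios of 14986 of 18217 genes were tested with lmFit and eBayes (limma 3.58.1, R 4.3.3) with Benjamini-Hochberg adjustment, and the script was tested on simulated data with 200 changed genes. The number of arrays limits the precision. Differences between genes were tested with exact sign-flip permutation tests. Genes named are the 6 members, the 5 other genes of the comparison across species and the vitellogenins. Also named are the 3 reference genes of the quantitative PCR and the 3 genes whose signals were most correlated with PCNA. Members, lists and tests were chosen with earlier results of these data known. Alternatives changed background correction, normalization, scaling, probe filters, probe summary, moderation, slide position as a covariate and the replicates used. The list of other pathway genes by product name was not run, since no table used here pairs these gene identifiers with products, and genome positions and sequences of the genes were not used here.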

Additional observations from a re-analysis of the deposited data

Results flagged for a closer look

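In the reductase gene tetur12g00060 the array of replicate 1 stood apart from the others, with a log2 ratio of -0.26 against -0.48 to -0.45, a gap of 0.863 of the whole range of the 4 arrays. The same array stood apart in 3 of the 4 probes that both reductase genes share, with gaps of 0.851 (CUST_31367_PI426396793, -0.14 against -0.38 to -0.34), 0.849 (CUST_31368_PI426396793, -0.12 against -0.41 to -0.37) and 0.868 (CUST_48038_PI426396793, -0.15 against -0.41 to -0.38) of the range. These 4 values are 1 pattern, since the gene's value is the mean over its probes. In the H2A variant, probe CUST_30118_PI426396793 gave -0.63 on the array of replicate 2 against -0.69 on the other 3, a gap of 0.926 of a narrow range. Values of 11 genes and 18 probes were checked in this way, and chance marks about 1 in 20 groups of 4.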

How the results depend on the processing

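Leaving out each replicate in turn changed no call of the 6 genes, with log2 fold changes of 0.04 to 0.23 for PCNA, -0.76 to -0.74 for the H2A variant, -0.47 to -0.40 for tetur12g00060, -0.45 to -0.38 for tetur27g02500 and -0.43 to -0.38 for the hydrolase pair. PCNA changed sign with normexp background and loess (-0.11, limma, adjusted p = 0.0888) and with probes detected in both channels (-0.20). It also changed sign with the median over probes (-0.15), with the brightest probe (-0.11) and with signals of 100 or more, added after seeing the data (-0.20). Separate channels and no replicate block, that is without pairing the channels of an array, gave -0.11 (limma, adjusted p = 0.112). That setting also used normexp and loess, which gave the same value with the pairing kept. Channels of the same array deviated together weakly, with correlations of 0.06 to 0.20. In the setting without pairing, which differed in normalization too, no call of the 6 genes changed. Scaled to the spike-in controls, the H2A variant was at -0.39, tetur12g00060 at -0.057, tetur27g02500 at -0.040 and both hydrolase genes at -0.044, none called. Tested against a change beyond 2-fold, the values of -0.75, -0.42, -0.40 and -0.41 for tetur05g03970 and tetur189g00020 had adjusted p = 1. The number of the 6 genes called lower was then 0 in both settings, and 3 with probes of 1 gene only, which leave the hydrolase pair without a value. Over all genes, 4053 were lower and 5655 higher as reported, against 1287 and 5107 scaled to the spike-in controls, 2738 and 6901 with normexp and median centring, and 712 and 459 tested beyond 2-fold. At 2-fold or more, 1364 were lower and 1355 higher as reported, against 804 and 337 with normexp and loess, also without pairing, 604 and 644 with normexp and median centring, 913 and 2787 scaled to the spike-in controls, 712 and 459 tested beyond 2-fold, 896 and 680 with signals of 100 or more, and 1170 and 903 with detection in both channels. Of the other genes, tetur12g00070 was at 0.30 with no detection filter and at 0.053 on the spike-in scale, and tetur27g02510 at 0.061 on that scale. For ftz-f1 the value was 0.38 (adjusted p = 0.0894) with no detection filter and passed 2-fold with the brightest probe. Pyruvate carboxylase was called higher with normexp and median centring (0.40), the brightest probe (0.28), no detection filter, trend and robust moderation, and signals of 100 or more (0.18 each). Juvenile hormone epoxide hydrolase lost its call on the spike-in scale (0.69, adjusted p = 0.0509), and tetur27g02510 with normexp and median centring (-0.20, adjusted p = 0.0549). The cause of these changes was not tested. Alternatives for the pathway list were not run. Signals near background limit the third PCNA probe.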
